A study of Mus musculus with 12 samples.

Results

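The transcripts of 10 genes of secretory autophagy and unconventional secretion were followed in the spinal cord of 12 mice: Sec22b, Stx3, Stx4a, Snap23, Trim16, Lgals3, Lgals8, Gorasp1, Gorasp2 and Tmed10. The genes were chosen by name, with earlier results of these data known. All 10 were found among the 45906 genes counted and had enough counts to be tested. Whole spinal cord of mice aged 7 months was collected from 4 genotypes with 3 mice each. These were Plekhg5+/+ mice, Plekhg5-/- mice, which are deficient in the guanine exchange factor Plekhg5, Plekhg5+/+ SOD1-G93A mice, which carry a transgene for the ALS-linked G93A form of human SOD1, and Plekhg5-/- SOD1-G93A mice, which combine both. The transgenic line was the low copy line with a slow disease course, and the mice were not separated by sex. The study asked how Plekhg5 acts on the release of Sod1 and on the disease of SOD1-G93A mice.

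Unconventional secretion releases proteins that lack a signal peptide without passing them through the ER and Golgi. In secretory autophagy such a cargo is taken into an autophagosome or a related membrane, which then fuses with the plasma membrane instead of ending in degradation. Trim16 and the galectins Lgals3 and Lgals8 recognise damaged endosomes and lysosomes and recruit autophagy factors to them, Sec22b is the vesicle SNARE of the pathway, Stx3, Stx4a and Snap23 are the SNAREs of the plasma membrane, the Golgi reassembly proteins Gorasp1 and Gorasp2 are needed for several unconventional routes, and Tmed10 is a p24 cargo receptor that can also pass cargo across the membrane of the ER-Golgi intermediate compartment. In the spinal cord Lgals3 is known as a gene of reactive microglia, whereas the SNAREs and Golgi proteins are used by all cells.

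Of the 10 genes, Lgals3 alone had a difference between genotypes that passed the test. It was 6.02-fold higher in Plekhg5+/+ SOD1-G93A than in Plekhg5+/+ mice, whereas the differences of the other 9 genes lay between -0.32 and 0.20 log2 units in the 4 comparisons of genotypes. Plekhg5-/- SOD1-G93A mice had 0.465 times the Lgals3 level of Plekhg5+/+ SOD1-G93A mice, a difference that did not pass the test after adjustment over all genes. For the SNAREs, the Golgi proteins and Tmed10 no difference with the loss of Plekhg5 passed the test, with or without the transgene.

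The upstream sequences of 3 genes are shown, chosen after their values were seen, to set the one member that rose beside genes like it: Lgals3 itself, Lgals9, a galectin of the pathway lists that also rose, and Cd68, a lysosomal membrane protein of microglia and macrophages whose pattern over the libraries was among the 5 most like that of Lgals3. Each is the stretch of 250 bases before the RefSeq start of the gene on GRCm38.p6, written 5′ to 3′ on the strand of the gene. Lgals3 was read from chr14:47373610-47373859 on the plus strand, Lgals9 from chr11:78984925-78985174 on the minus strand and Cd68 from chr11:69666171-69666420 on the minus strand. Capitals mark matches on either strand to GGGCGG (the GC box), GAGGAA (the core of sites bound by the myeloid factor PU.1), TGANTCA (the AP-1 site) and CACGTG (an E-box, bound by many factors).
Lgals3: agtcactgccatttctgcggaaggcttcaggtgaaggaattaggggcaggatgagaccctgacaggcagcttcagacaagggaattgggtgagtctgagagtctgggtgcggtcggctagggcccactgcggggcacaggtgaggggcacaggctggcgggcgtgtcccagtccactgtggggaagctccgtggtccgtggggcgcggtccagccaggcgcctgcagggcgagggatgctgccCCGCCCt
Lgals9: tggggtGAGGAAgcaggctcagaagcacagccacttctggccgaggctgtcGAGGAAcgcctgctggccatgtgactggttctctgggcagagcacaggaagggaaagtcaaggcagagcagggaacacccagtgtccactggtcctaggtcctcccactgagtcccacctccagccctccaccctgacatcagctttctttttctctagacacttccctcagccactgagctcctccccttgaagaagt
Cd68: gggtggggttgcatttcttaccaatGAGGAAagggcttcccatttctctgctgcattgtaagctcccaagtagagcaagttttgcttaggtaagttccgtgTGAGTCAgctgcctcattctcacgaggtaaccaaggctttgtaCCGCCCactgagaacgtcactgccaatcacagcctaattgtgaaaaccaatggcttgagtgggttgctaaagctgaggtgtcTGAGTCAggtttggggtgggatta

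The 3 windows held different motifs. The window of Lgals3 held 1 GC box and none of the other 3 motifs, that of Lgals9 held 2 PU.1 cores, and that of Cd68 held 2 AP-1 sites, 1 PU.1 core and 1 GC box. Of the 32851 windows of this length upstream of RefSeq starts, 32.7% held a GC box, 23.3% a PU.1 core, 6.75% an AP-1 site and 6.02% the E-box. The reference gave a window for 9 of the 10 genes, all except Trim16. Among these 9, the GC box occurred in 5 (Gorasp1, Gorasp2, Lgals3, Sec22b and Stx4a), the PU.1 core in 3 (Gorasp2, Sec22b and Tmed10), the E-box in 1 (Tmed10) and the AP-1 site in 0. The matches describe letters in these windows and overlapped none of each other.

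The libraries held 30415643 to 38743628 counts, with a median of 32714352. Levels are given as CPM, the count of a gene relative to the total of its library, with the totals scaled by TMM factors. The genotypes were checked on the targeted genes: Plekhg5 was 22.9 ± 3.08 CPM in Plekhg5+/+ and 22.4 ± 2.19 in Plekhg5+/+ SOD1-G93A mice, against 3.99 ± 0.712 in Plekhg5-/- and 4.26 ± 0.413 in Plekhg5-/- SOD1-G93A mice (SD, n = 3 each). Human SOD1 was 4993 ± 612 CPM with the transgene in Plekhg5+/+ and 5001 ± 97.1 in Plekhg5-/- mice, and 0.964 ± 0.751 and 2.64 ± 2.46 in the mice without it. Markers of neurons, motoneurons, astrocytes and oligodendrocytes were all present, and some moved with the genotypes, as the microglia markers did. The summed level of 6 astrocyte markers was 3323 to 4060 CPM in Plekhg5+/+ and 5042 to 7787 CPM in Plekhg5+/+ SOD1-G93A mice, and 1 of the 6, Gfap, rose by 1.23 log2 units (adjusted p = 0.0198, edgeR). The sum of 6 motoneuron markers was 275 to 283 CPM in the former and 201 to 263 CPM in the latter, with 0 of 6 called. The 4 Schwann cell markers of the nerve roots summed to 436 to 618 CPM in Plekhg5-/- SOD1-G93A and 192 to 439 CPM in the other libraries, and the 4 endothelial markers to 130 to 177 CPM in Plekhg5-/- SOD1-G93A against 94.1 to 119 CPM in Plekhg5+/+ SOD1-G93A mice, with 0 of either list called. The part of these cell types in the results was not tested. The first Plekhg5+/+ SOD1-G93A library stood apart from the other libraries in its microglial transcripts, and several results that it carries are given with and without it. It also had the highest sum of astrocyte markers, 7787 CPM, and the lowest sums of motoneuron and neuron markers, 201 and 3596 CPM. Without this library Gfap rose by 0.91 log2 units (adjusted p = 0.0123, edgeR). Y-linked transcripts were present in 3 Plekhg5+/+ libraries, 2 Plekhg5-/-, 2 Plekhg5+/+ SOD1-G93A and 1 of the Plekhg5-/- SOD1-G93A libraries.

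The 10 genes covered a wide range of levels. To compare genes with each other, CPM were divided by the exon length in kb. In Plekhg5+/+ mice the level per kb was highest for Tmed10 (48.9 ± 2.77 CPM per kb, SD, n = 3), followed by Gorasp2 (35.0 ± 1.64), Sec22b (26.1 ± 0.206) and Lgals8 (19 ± 0.343). Stx4a (14.6 ± 1.5) was the most abundant plasma membrane SNARE of the list, with Snap23 at 5.28 ± 0.428 and Stx3 at 2.88 ± 0.238. Gorasp1 lay at 8.11 ± 0.276, Lgals3 at 3.67 ± 0.877 and Trim16 at 2.80 ± 0.199. Every gene in this order was separated from the next by all 3 libraries, apart from Stx3 and Trim16, whose libraries overlapped. Over all 12 libraries Tmed10 lay above 94.1% of the genes tested and Trim16 above 40.7%, the highest and lowest places among the 10.

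**Figure D1:**
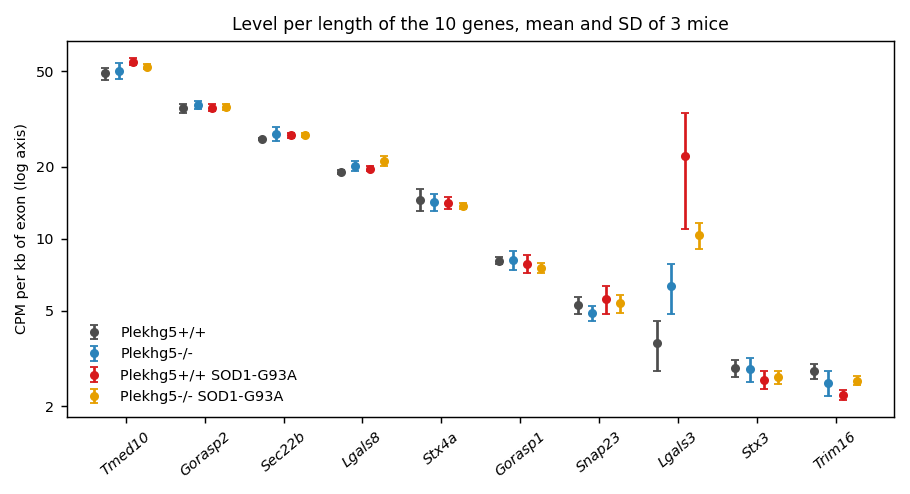
Mean level per length (CPM per kb of exon, log axis) of the 10 genes in the 4 genotypes, with bars of 1 SD over 3 mice, ordered by the level in Plekhg5+/+ mice. Lgals3 had rank 8 of 10 in Plekhg5+/+ mice and rank 4 in Plekhg5+/+ SOD1-G93A mice, while the other 9 genes kept their order in all genotypes.

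The order of the other 9 genes was the same in all 4 genotypes, and Lgals3 moved within it. Lgals3 had rank 8 in Plekhg5+/+ mice, rank 7 in Plekhg5-/- mice (6.34 ± 1.5 CPM per kb), rank 6 in Plekhg5-/- SOD1-G93A mice (10.3 ± 1.29) and rank 4 in Plekhg5+/+ SOD1-G93A mice (22.2 ± 11.2). In the last of these genotypes its libraries reached from 13.8 to 34.9 CPM per kb and overlapped those of Gorasp2, Sec22b, Lgals8 and Stx4a. In Plekhg5-/- mice its libraries overlapped those of Snap23.

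Lgals3 (chromosome 14 from 47373860 to 47386167, plus strand, on GRCm38.p6 like all positions here) encodes galectin-3, a sugar-binding lectin that is itself released without a signal peptide and that gathers on ruptured lysosomes. Its 3 libraries stood at 6.58, 4.56 and 4.35 CPM in Plekhg5+/+ mice and at 49.0, 25.1 and 19.4 CPM in Plekhg5+/+ SOD1-G93A mice. Every transgenic library was above every Plekhg5+/+ library, and the first one was far above the other two. The level rose by 2.59 ± 0.332 log2 units (SE), a 6.02-fold difference with a 95% confidence interval from 3.63 to 9.99 (edgeR quasi-likelihood test, adjusted p = 0.0125). Without the first Plekhg5+/+ SOD1-G93A library the difference was 2.10 log2 units with an adjusted p of 0.000598 (edgeR). The call was lost when the first or second Plekhg5+/+ library was left out (adjusted p = 0.0661 and 0.0916) and when only the 2 genotypes entered the fit (0.0836), with log2 differences of 2.81, 2.51 and 2.57 (edgeR).

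With the loss of Plekhg5 the transgenic level of Lgals3 was lower, but the difference did not pass the test. The 3 Plekhg5-/- SOD1-G93A libraries stood at 15.4, 15.7 and 12.4 CPM, all below the 3 Plekhg5+/+ SOD1-G93A libraries and all above the 3 Plekhg5-/- libraries. The difference between the transgenic genotypes was -1.10 ± 0.306 log2 units (95% confidence interval from -1.78 to -0.43), with an unadjusted p of 0.00411 and an adjusted p of 0.408 by edgeR. Without the first Plekhg5+/+ SOD1-G93A library it was -0.62 (adjusted p = 0.776, edgeR). DESeq2 with a prior on fold changes, the kind of fit that the study used, called it (adjusted p = 0.0338). DESeq2 without the prior did not (0.172).

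Without the transgene Lgals3 was at 9.92, 10.3 and 6.50 CPM in Plekhg5-/- mice, which overlapped the Plekhg5+/+ libraries. The difference was 0.79 ± 0.335 log2 units (adjusted p = 0.929, edgeR). Between Plekhg5-/- SOD1-G93A and Plekhg5-/- mice it was 0.70 ± 0.317 log2 units (adjusted p = 0.927, edgeR). The interaction, which is the effect of the transgene in Plekhg5-/- minus that in Plekhg5+/+ mice, was -1.89 ± 0.454 log2 units and had an unadjusted p of 0.00156 and an adjusted p of 0.338 (edgeR). DESeq2 called the interaction of Lgals3 with the prior and without it (adjusted p = 0.0397 and 0.0439). Without the first Plekhg5+/+ SOD1-G93A library the interaction was -1.40 log2 units (adjusted p = 0.344, edgeR).

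**Figure D2:**
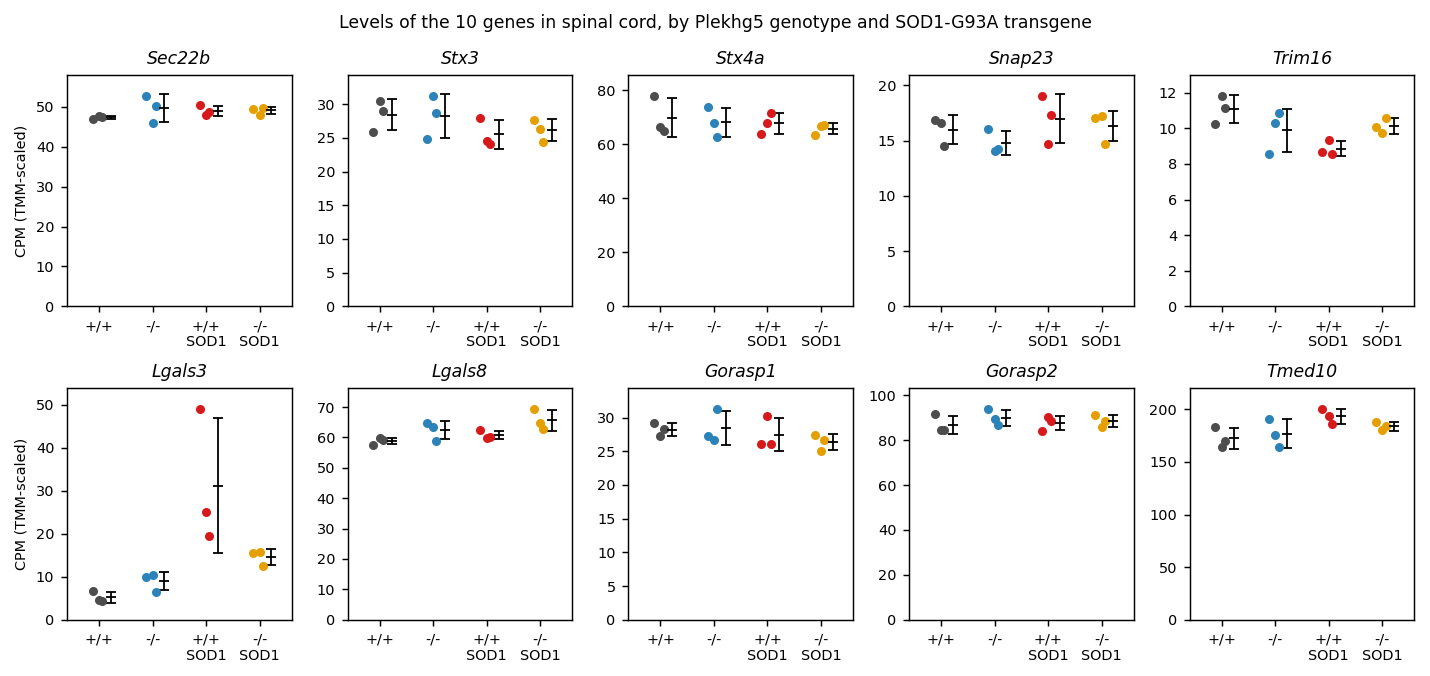
Level in CPM (TMM-scaled) of each of the 10 genes in the 12 libraries, each axis starting at 0. Points are single mice, with the mean and SD of 3 mice beside them, and SOD1 marks the SOD1-G93A transgene. Lgals3 reached 19.4 to 49.0 CPM in Plekhg5+/+ SOD1-G93A mice against 4.35 to 6.58 in Plekhg5+/+ mice, and no other gene varied more than 1.39-fold between its lowest and highest library.

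Lgals3 moved together with microglial transcripts. The 7 microglia markers Aif1, Itgam, Csf1r, P2ry12, Tmem119, Cx3cr1 and C1qa summed to 268 to 298 CPM in Plekhg5+/+ mice, 290 to 393 in Plekhg5-/- mice, 465 to 814 in Plekhg5+/+ SOD1-G93A mice and 367 to 403 in Plekhg5-/- SOD1-G93A mice. With the transgene in Plekhg5+/+ mice 6 of the 7 markers rose, by 0.52 to 1.57 log2 units, and Tmem119 was 0.25 log2 units higher with an adjusted p of 0.496 (edgeR). Between the transgenic genotypes 0 of the 7 passed the test (0.0347% of all genes), with a median difference of -0.53 log2 units over the 7. For 6 of them each Plekhg5-/- SOD1-G93A library was below each Plekhg5+/+ SOD1-G93A library. Libraries of these genotypes did not overlap, in either direction, for 19.5% of all genes. Without the first Plekhg5+/+ SOD1-G93A library the summed level was 1.69-fold that of Plekhg5+/+ mice in place of 2.07-fold, and 5 of the 7 markers were called. The summed level of Plekhg5-/- SOD1-G93A mice was then 0.80 times that of Plekhg5+/+ SOD1-G93A mice in place of 0.65 times. The 7 differences between the transgenic genotypes then lay between -0.50 and -0.21 log2 units, with 0 called. None of the 7 was at 0 in any library. In whole tissue, fewer or more cells of a type and less or more RNA per cell cannot be told apart. The part of microglia in the differences of Lgals3 was not tested.

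The ratio of Lgals3 to the sum of the microglia markers was also higher with the transgene. It was 0.0181 ± 0.00410 in Plekhg5+/+, 0.0262 ± 0.00423 in Plekhg5-/-, 0.0510 ± 0.0111 in Plekhg5+/+ SOD1-G93A and 0.0374 ± 0.00322 in Plekhg5-/- SOD1-G93A mice (SD, n = 3 each). The ratio was 2.82-fold higher in Plekhg5+/+ SOD1-G93A than in Plekhg5+/+ mice with no overlap of libraries. The exact permutation test (two-sided) gave p = 0.1, the smallest p that 3 against 3 mice allow. Lgals3 was the member called in this same comparison, so this separation is not independent of that call. Between the transgenic genotypes the libraries overlapped, with 0.735 times the ratio in Plekhg5-/- SOD1-G93A mice (exact permutation p = 0.2). Without the first Plekhg5+/+ SOD1-G93A library the ratios of these comparisons were 2.57-fold and 0.808-fold. The 6 markers of border and infiltrating macrophages (Ccr2, Mrc1, Lyve1, Cd163, F13a1 and Ms4a7) summed to 10.1 to 21.2 CPM in all libraries. Of these 1 rose in Plekhg5+/+ SOD1-G93A mice, Ms4a7, from a low level of 0.214 to 1.30 CPM. Its rise was 2.58 log2 units (adjusted p = 0.0125, edgeR), and 2.39 without the first Plekhg5+/+ SOD1-G93A library (0.0228). The other 5 had negative differences that did not pass the test, and the median over the 6 was -0.19 log2 units.

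**Figure D3:**
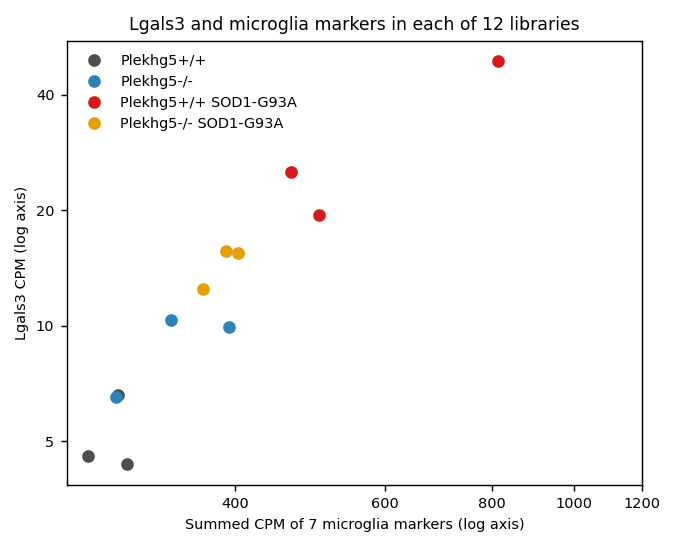
Lgals3 CPM against the summed CPM of the 7 microglia markers in each of the 12 libraries (both axes log), coloured by genotype. The first Plekhg5+/+ SOD1-G93A library lies at 814 CPM of microglia markers and 49.0 CPM of Lgals3, and the 3 Plekhg5-/- SOD1-G93A libraries lie between the Plekhg5+/+ libraries and the other Plekhg5+/+ SOD1-G93A libraries.

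The genes whose log2 CPM followed Lgals3 most closely over the 12 libraries were C4a, C4b, Cd68, Frrs1 and Slc15a3, with Pearson correlations of 0.98 for each. C4a and C4b are neighbouring complement genes of near-identical sequence, and 7 libraries had fractional counts for them, so some of their reads were divided. C4b had the higher mean level in each genotype. The part of shared reads in either count was not tested, and the correlations of C4a and C4b may rest partly on the same reads. Cd68 was 6.73 ± 0.452 CPM in Plekhg5+/+, 9.43 ± 1.48 in Plekhg5-/-, 34.5 ± 17.7 in Plekhg5+/+ SOD1-G93A and 15.7 ± 2.78 in Plekhg5-/- SOD1-G93A mice (SD, n = 3 each). Its libraries lay between 23.1 and 54.9 CPM in Plekhg5+/+ SOD1-G93A and between 6.31 and 7.21 CPM in Plekhg5+/+ mice, a separation that the choice by likeness to Lgals3 fixes. Slc15a3 is a histidine and peptide transporter of lysosomes. The correlations describe 12 libraries of 4 genotypes that share depth and cell makeup, and among the 10 genes themselves the correlation with Lgals3 was 0.84 for Tmed10 and -0.76 for Trim16.

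Lgals8 (chromosome 13 from 12439402 to 12464977, minus strand) encodes galectin-8, which recruits autophagy receptors to damaged endosomes. It was at 57.6, 59.7 and 59.2 CPM in Plekhg5+/+, 64.9, 63.45 and 58.9 in Plekhg5-/-, 62.4, 59.9 and 60.2 in Plekhg5+/+ SOD1-G93A and 69.4, 64.6 and 62.9 in Plekhg5-/- SOD1-G93A mice. Unlike for Lgals3, the 4 genotypes lay close together. The largest difference was 0.11 ± 0.0574 log2 units, in Plekhg5-/- SOD1-G93A against Plekhg5+/+ SOD1-G93A mice, whose libraries did not overlap (95% confidence interval from -0.02 to 0.23, adjusted p = 0.592, edgeR). Lgals8 differed by 0.05 log2 units between Plekhg5+/+ mice with and without the transgene (95% confidence interval from -0.08 to 0.17), also without overlap of the libraries and without passing the test.

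Trim16 (chromosome 11 from 62820198 to 62842948, plus strand) is a tripartite motif protein that binds galectins and hands leaderless cargo to Sec22b. It had the lowest level per kb of the 10 genes and the largest difference after Lgals3. Its libraries stood at 10.3, 11.8 and 11.1 CPM in Plekhg5+/+ and at 8.67, 9.34 and 8.55 CPM in Plekhg5+/+ SOD1-G93A mice, with no overlap. The difference was -0.32 ± 0.101 log2 units, or 20.1% less, with an unadjusted p of 0.00696 and an adjusted p of 0.109 (edgeR), and so did not pass the test. In the mice that combine both, the libraries stood at 10.1, 9.71 and 10.6 CPM, all above those of Plekhg5+/+ SOD1-G93A mice (difference 0.20 ± 0.101 log2 units, adjusted p = 0.589, edgeR). The Plekhg5-/- libraries, at 8.54, 10.3 and 10.9 CPM, spread widely and overlapped those of the other genotypes. The interaction of Trim16 was 0.36 ± 0.142 log2 units (unadjusted p = 0.026, adjusted p = 0.483, edgeR), opposite in sign to that of Lgals3.

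Sec22b (chromosome 3 from 97901227 to 97922318, plus strand), the vesicle SNARE that carries cargo between ER and Golgi and to the plasma membrane in secretory autophagy, was among the steadiest of the 10. It was at 46.9, 47.6 and 47.5 CPM in Plekhg5+/+, 52.8, 46.0 and 50.2 in Plekhg5-/-, 50.4, 47.9 and 48.7 in Plekhg5+/+ SOD1-G93A and 49.5, 48.0 and 49.8 in Plekhg5-/- SOD1-G93A mice. The libraries of both transgenic genotypes were all above the Plekhg5+/+ libraries by a small margin, and in the other 3 comparisons the genotypes overlapped. The 4 differences lay between -0.02 and 0.07 log2 units, and their 95% confidence intervals between -0.14 and 0.20. A change of Sec22b by more than 0.20 log2 units in either direction lay outside each of these intervals.

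For the plasma membrane SNAREs no difference between genotypes passed the test. Snap23 (chromosome 2 from 120567655 to 120601255, plus strand), the partner of syntaxins in exocytosis outside the synapse, was at 16.9, 16.6 and 14.5 CPM in Plekhg5+/+, 16, 14.1 and 14.3 in Plekhg5-/-, 19.1, 14.7 and 17.3 in Plekhg5+/+ SOD1-G93A and 17.0, 17.2 and 14.7 in Plekhg5-/- SOD1-G93A mice. The libraries of all genotypes overlapped. Between Plekhg5-/- and Plekhg5+/+ mice Snap23 differed by -0.11 log2 units without the transgene (95% confidence interval from -0.35 to 0.12) and by -0.06 with it (from -0.29 to 0.17).

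Stx4a (chromosome 7 from 127840643 to 127850988, plus strand) encodes syntaxin-4, and Stx3 (chromosome 19 from 11775118 to 11821569, minus strand) encodes syntaxin-3. Both are target SNAREs that pair with Snap23. Stx4a was at 78.1, 66.6 and 64.8 CPM in Plekhg5+/+, 73.8, 68.0 and 62.8 in Plekhg5-/-, 64.0, 67.9 and 71.8 in Plekhg5+/+ SOD1-G93A and 63.5, 66.8 and 67.2 in Plekhg5-/- SOD1-G93A mice. Stx3 was at 25.9, 30.5 and 29.0 CPM in Plekhg5+/+, 24.8, 31.3 and 28.7 in Plekhg5-/-, 28.0, 24.5 and 24.1 in Plekhg5+/+ SOD1-G93A and 27.6, 26.4 and 24.4 in Plekhg5-/- SOD1-G93A mice. For both syntaxins the genotypes overlapped in every comparison. The differences lay between -0.05 and -0.03 log2 units for Stx4a and between -0.16 and 0.03 for Stx3. The one farthest from 0 was -0.16 ± 0.0972 log2 units for Stx3 in Plekhg5+/+ SOD1-G93A against Plekhg5+/+ mice (adjusted p = 0.433, edgeR).

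Of the Golgi proteins, Gorasp1 (chromosome 9 from 119925673 to 119937558, minus strand) encodes GRASP65 and Gorasp2 (chromosome 2 from 70661509 to 70691725, plus strand) encodes GRASP55, which stack Golgi cisternae. Gorasp2 was at 91.6, 84.5 and 84.6 CPM in Plekhg5+/+, 93.9, 89.3 and 86.8 in Plekhg5-/-, 84.1, 90.3 and 88.4 in Plekhg5+/+ SOD1-G93A and 91.0, 85.9 and 88.5 in Plekhg5-/- SOD1-G93A mice. Its highest library was 1.12-fold above its lowest, the smallest range of the 10 genes, and its differences lay between -0.02 and 0.05 log2 units. Gorasp1 was at 29.1, 27.2 and 28.3 CPM in Plekhg5+/+, 27.2, 26.7 and 31.3 in Plekhg5-/-, 26.1, 30.3 and 26.0 in Plekhg5+/+ SOD1-G93A and 27.4, 25.0 and 26.7 in Plekhg5-/- SOD1-G93A mice, with differences from -0.11 to 0.01 log2 units. The libraries of both genes overlapped in all 4 comparisons, and no adjusted p was under 0.818 (edgeR).

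Tmed10 (chromosome 12 from 85340614 to 85374717, minus strand), the most abundant of the 10, was at 183, 164 and 170 CPM in Plekhg5+/+ and at 200, 193 and 186 CPM in Plekhg5+/+ SOD1-G93A mice. All 3 transgenic libraries were above the 3 Plekhg5+/+ libraries, the lowest of them by a small margin. The difference was 0.16 ± 0.0659 log2 units, or 12.1% more, with an unadjusted p of 0.027 and an adjusted p of 0.206 (edgeR). In Plekhg5-/- mice Tmed10 was at 191, 175 and 164 CPM and in Plekhg5-/- SOD1-G93A mice at 188, 180 and 184 CPM, which overlapped each other and the libraries of the other 2 genotypes. These values rest on counts of which some were fractions, since reads that matched several places were divided among them.

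Seen over the list, the 10 genes were tested with all other genes in the same fits. Since the list was chosen with earlier results of these data known, its counts are not independent of them. In Plekhg5+/+ SOD1-G93A against Plekhg5+/+ mice 1 of the 10 was called at an adjusted p under 0.05, against 2.47% of the 20155 genes tested, and the libraries did not overlap for 5 (4 higher, 1 lower), against 20.6%. The median difference was 0.03 log2 units for the 10 and -0.00099 for all genes. Between the transgenic genotypes 0 were called, against 0.0347% of all genes, and the libraries did not overlap for 3 (2 higher, 1 lower, in Plekhg5-/- SOD1-G93A mice), against 19.5%. The 4 Schwann cell markers were also higher in each Plekhg5-/- SOD1-G93A library than in each library of either comparison group, Plekhg5+/+ SOD1-G93A (median difference 1.15 log2 units) or Plekhg5-/- (1.41), with 0 of them called. In Plekhg5-/- against Plekhg5+/+ mice 0 were called, against 0.0298%, and for 0 did the libraries not overlap, against 8.71%. With the transgene in Plekhg5-/- mice 0 were called, against 0.00496%, and 1 had libraries that did not overlap, against 12.5%.

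The comparisons share mice and are not independent of each other. The interaction was called for 0 of the 10 and for 0% of all genes by edgeR and by limma voom, with 1824 genes at an unadjusted p under 0.05, while DESeq2 called 102 genes without a prior and 114 with it. Of the 10, 3 had an unadjusted p under 0.05 in Plekhg5+/+ SOD1-G93A against Plekhg5+/+ mice (Lgals3, Trim16 and Tmed10), 2 in the interaction (Lgals3 and Trim16) and 1 in each other comparison, each time Lgals3 (edgeR). Of the 20155 genes tested, 3659 were under this value in Plekhg5+/+ SOD1-G93A against Plekhg5+/+ mice. There were 1741 between the transgenic genotypes, 1073 in Plekhg5-/- against Plekhg5+/+ mice and 1084 in Plekhg5-/- SOD1-G93A against Plekhg5-/- mice (edgeR). The 498 genes called in the first comparison became 4 and 2 when the first or second Plekhg5+/+ library was left out and 3 when only the 2 genotypes were fitted, the same settings that ended the call of Lgals3.

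**Figure D4:**
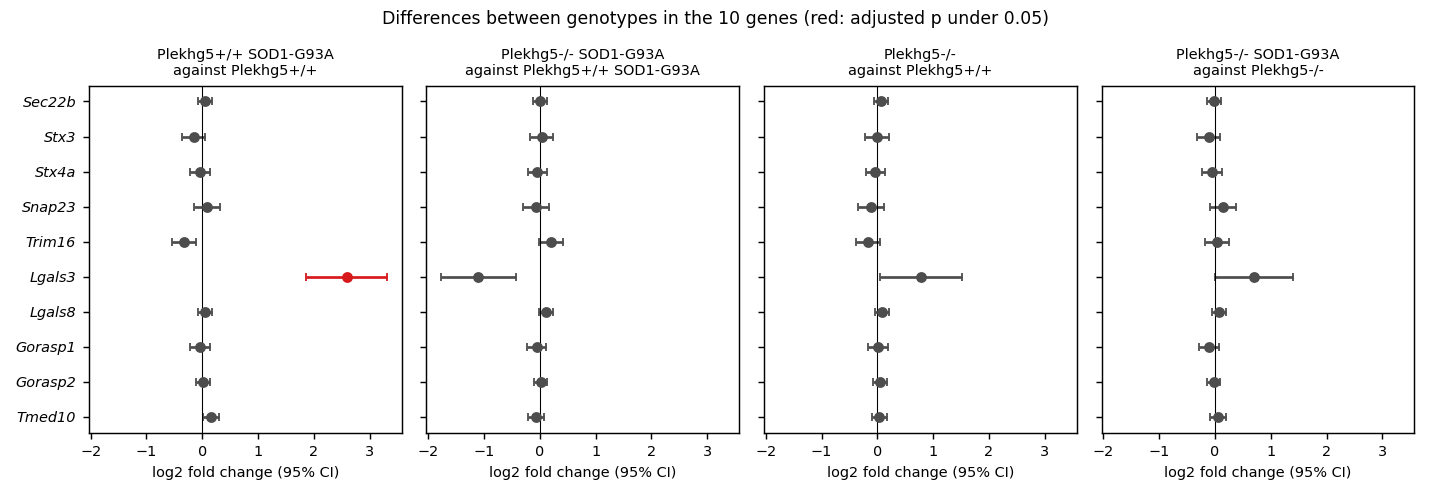
Log2 fold changes of the 10 genes in 4 comparisons of genotypes, with 95% confidence intervals from the edgeR fit of all 12 libraries; red marks an adjusted p under 0.05. Only Lgals3 in Plekhg5+/+ SOD1-G93A against Plekhg5+/+ mice is marked, at 2.59, and the other 9 genes lie between -0.32 and 0.20 in all panels.

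Around the 10 genes, 62 further genes of the same pathway were examined in 7 lists, of which 61 could be tested. These lists were also chosen with earlier results of these data known. In Plekhg5+/+ SOD1-G93A against Plekhg5+/+ mice 2 rose and 2 fell, 4 of 61 against 2.47% of all genes, and the libraries did not overlap for 9 higher and 9 lower genes, against 20.6%. The median difference of the 61 was 0.02 log2 units. Of the 61, 0 were called between the transgenic genotypes (0.0347% of all genes), in Plekhg5-/- against Plekhg5+/+ mice (0.0298%) and in Plekhg5-/- SOD1-G93A against Plekhg5-/- mice (0.00496%). The SNAREs of autophagosomes and lysosomes held 1 of the genes that rose among 8, Vamp8, the R-SNARE of autophagosome to lysosome fusion. Vamp8 stood at 9.83, 8.34 and 9.28 CPM in Plekhg5+/+ and at 14.9, 11.6 and 13.9 CPM in Plekhg5+/+ SOD1-G93A mice, without overlap, and rose by 0.56 ± 0.113 log2 units (adjusted p = 0.026, edgeR). It was at 10.1, 9.78 and 11.1 CPM in Plekhg5-/- SOD1-G93A mice, below each Plekhg5+/+ SOD1-G93A library (difference -0.39 ± 0.112 log2 units, adjusted p = 0.416, edgeR).

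For its partners Stx17 and Snap29 no difference passed the test. These form with Vamp8 the complex that joins autophagosome and lysosome, and the study targeted both, as well as Snap23, in motoneurons. Stx17 differed by 0.13 log2 units and Snap29 by -0.06 in the same comparison (adjusted p = 0.492 and 0.719, edgeR). Among 9 other galectins and receptors of damaged membranes 1 rose, Lgals9, at 12.0, 12.6 and 12.3 CPM in Plekhg5+/+ and 28.0, 16.9 and 19.9 in Plekhg5+/+ SOD1-G93A mice. The rise of Lgals9 was 0.81 ± 0.152 log2 units (adjusted p = 0.0198, edgeR), and its Plekhg5-/- SOD1-G93A libraries, from 14.3 to 16.7 CPM, lay below all Plekhg5+/+ SOD1-G93A libraries (adjusted p = 0.428, edgeR). The microglia markers moved in the same direction as Vamp8 and Lgals9 in both comparisons, and their part was not tested. Lgals3bp, a secreted glycoprotein that binds galectin-3, was at 18.9, 25.9 and 22 CPM in Plekhg5+/+ and 122, 45.3 and 38.5 CPM in Plekhg5+/+ SOD1-G93A mice, and just missed the threshold (difference 1.62 ± 0.370 log2 units, adjusted p = 0.0515, edgeR). Without the first Plekhg5+/+ SOD1-G93A library Lgals3bp was called at 0.91 log2 units (adjusted p = 0.00371, edgeR).

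The 2 genes that fell were both among 13 cargoes and effectors of unconventional secretion. Ide, the insulin-degrading enzyme, was at 92.6, 105 and 96.0 CPM in Plekhg5+/+ and at 68.2, 59.8 and 63.7 CPM in Plekhg5+/+ SOD1-G93A mice (-0.61 ± 0.148 log2 units, adjusted p = 0.0497, edgeR). Hsp90aa1, a cytosolic chaperone that escorts leaderless cargo, was at 1559, 1291 and 1235 CPM in Plekhg5+/+ and at 1003, 1136 and 977 CPM in Plekhg5+/+ SOD1-G93A mice (-0.39 ± 0.0844 log2 units, adjusted p = 0.0338, edgeR). Without the transgene, Hsp90aa1 was at 1037, 1076 and 1110 CPM in Plekhg5-/- mice, also below each Plekhg5+/+ library (adjusted p = 0.695, edgeR). Of the 21 alternative settings, 18 called Lgals9, 15 Vamp8, 13 Hsp90aa1 and 8 Ide. Without the first Plekhg5+/+ SOD1-G93A library Lgals9 remained called (0.58 log2 units, adjusted p = 0.0265), and Vamp8, Hsp90aa1 and Ide had adjusted p of 0.105, 0.127 and 0.114 (edgeR).

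Mouse Sod1, the cargo that the study followed, ranged from 144 to 186 CPM over the 12 libraries, and its differences lay between -0.06 and 0.03 log2 units with no adjusted p under 0.939 (edgeR). The 4 remaining lists held no called gene. They were the genes of plasma membrane fusion and lysosome exocytosis (11 genes), the ER-Golgi SNAREs that pair with Sec22b (9), the other p24 receptors (7 tested of 8) and the Golgi matrix partners of Gorasp1 and Gorasp2 (4). The gene with the smallest p among them in Plekhg5+/+ SOD1-G93A against Plekhg5+/+ mice was Snap25 (-0.17 log2 units, adjusted p = 0.196) for fusion at the plasma membrane, Bet1 (0.15, 0.387) for the ER-Golgi SNAREs, Tmed3 (0.28, 0.187) for the p24 receptors and Uso1 (-0.09, 0.445) for the Golgi matrix (edgeR). Between the transgenic genotypes it was Vamp3 for fusion at the plasma membrane, at -0.39 ± 0.105 log2 units (unadjusted p = 0.00276, adjusted p = 0.402, edgeR), and all 7 p24 receptors had negative differences, from -0.31 to -0.07 log2 units.

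**Figure D5:**
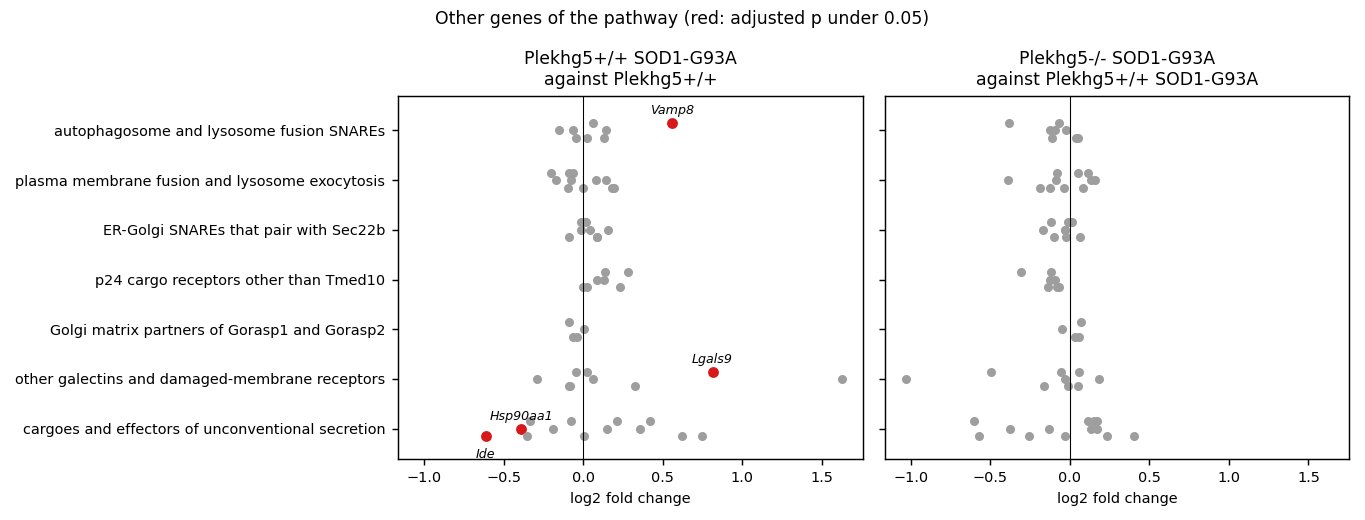
Log2 fold changes of the 61 further pathway genes in 7 lists for Plekhg5+/+ SOD1-G93A against Plekhg5+/+ mice (left) and for Plekhg5-/- SOD1-G93A against Plekhg5+/+ SOD1-G93A mice (right); the vertical shift within a list only separates the points. Red points have an adjusted p under 0.05: Vamp8 and Lgals9 higher and Ide and Hsp90aa1 lower on the left, none on the right.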

How the data were processed

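Poly(A) RNA of the spinal cord was sequenced by the authors as stranded single-end libraries. Reads were trimmed with Cutadapt version 2.4, mapped with STAR version 2.7.2b to GRCm38.p6 plus the human SOD1 cDNA and counted by strand on RefSeq exons with featureCounts version 1.6.4, with reads on several places or genes divided as fractions. The deposited values are expected counts per gene, that is estimated counts in which the authors divided shared reads, with no normalization. All count columns matched a labelled mouse. Fractional counts occurred in 9 libraries for Sec22b, 10 for Stx4a and Tmed10, 5 for Snap23 and Lgals8, 2 for Trim16 and 0 for the others. The authors tested genes with DESeq2 and shrinkage of fold changes, at an adjusted p under 0.05. For the tests given here counts were rounded. edgeR version 4.0.16 in R version 4.3.3 (filterByExpr, TMM, robust quasi-likelihood fits of all 12 libraries over the 4 genotypes) gave log2 fold changes, standard errors and p-values, adjusted by Benjamini-Hochberg over the 20155 genes kept, with a threshold of 0.05. CPM are TMM-scaled, correlations used log2 CPM with a prior count of 2, and level per length is CPM per kb of the deposited exon length. The Lgals3 ratio was compared by exact permutation (two-sided). Replicates are separate mice. No pair of libraries of a genotype agreed within counting noise. In Plekhg5+/+ mice the chi-square per degree of freedom was 23.5 and 24.1 for pairs with the first library and 7.5 for the other pair. In Plekhg5-/- mice it was 23.2 and 28.4 for pairs with the first library and 7.7 for the other pair. Pairs gave 16.7 to 21.5 in Plekhg5+/+ SOD1-G93A and 5.79 to 8.73 in Plekhg5-/- SOD1-G93A mice.

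The members and the lists were chosen with earlier results of these data known. Named were the 10 members, pathway genes past the threshold in any comparison or else the one with the smallest p of a list, the targeted genes, and the 5 genes most correlated with each called member. Lgals3bp, Stx17, Snap29, Sod1, Gfap and Ms4a7 were named after their values were seen. As alternatives, DESeq2 version 1.42.0 (once with a prior on fold changes, once without), its size factors in edgeR, limma version 3.58.1 voom with sample quality weights, no filter or at least 10 counts in every library, only the 2 genotypes compared, the replicate number as a block, Y-linked transcripts (over 1000 counts) as a covariate, and leaving out each library were tried. Leaving out the first Plekhg5+/+ SOD1-G93A library for the cell type markers, the Lgals3 ratio and Lgals3bp was added after seeing the data. Upstream windows came from RefSeq on GRCm38.p6, and plots were drawn with Python version 3.11.15 and matplotlib version 3.10.9. A marker on the microglia list is not reported here, and sums were taken over the other 7.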

Additional observations from a re-analysis of the deposited data

How the results depend on the processing

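Lgals3 in Plekhg5+/+ SOD1-G93A against Plekhg5+/+ mice kept its direction in all 21 alternatives and its call in 18 of them. With only the 2 genotypes in the fit 0 of the 10 genes were called in place of 1, and with single libraries left out the count was 0 to 1 (0 without Plekhg5+/+ replicate 1 or 2). In Plekhg5-/- SOD1-G93A against Plekhg5+/+ SOD1-G93A mice DESeq2 with a prior called 1, Lgals3, at -0.40 log2 units, and in the interaction DESeq2 called 1 with the prior and 1 without it. DESeq2 with the prior shrank the first difference of Lgals3 to 0.75 log2 units. The labels do not say whether the replicate numbers pair the mice. Correlations of same-numbered libraries ran from -0.109 to 0.318. They were highest for the first libraries of Plekhg5-/- and Plekhg5+/+ mice (0.318) and of the transgenic genotypes (0.298). The source of these correlations was not tested. With the replicate block Lgals3 was at 2.54 log2 units (adjusted p = 0.000716, edgeR). The count of the 10 called did not change in any comparison, and 631 genes were called in place of 498.

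The other settings changed counts over all genes. DESeq2 called 1172 genes without the prior and 1198 with it in place of 498 in Plekhg5+/+ SOD1-G93A against Plekhg5+/+ mice, limma voom 295, the fit of only 2 genotypes 3, and leaving out single libraries gave 2 to 771 (4 and 2 without Plekhg5+/+ replicates 1 and 2, 323 without Plekhg5-/- replicate 2, 223 and 771 without Plekhg5+/+ SOD1-G93A replicates 1 and 2, 313 without Plekhg5-/- SOD1-G93A replicate 2). In Plekhg5-/- SOD1-G93A against Plekhg5+/+ SOD1-G93A mice the 7 genes became 71 and 114 by DESeq2, 11 in the fit of 2 genotypes and 4 to 8 with single libraries left out (4 without replicate 2 of either genotype). In Plekhg5-/- against Plekhg5+/+ mice the 6 genes became 36 and 35 by DESeq2 and 5 to 59 with single libraries left out (59 without Plekhg5+/+ replicate 3). In Plekhg5-/- SOD1-G93A against Plekhg5-/- mice the 1 gene became 44 and 42 by DESeq2, 7 by limma voom, 20 in the fit of 2 genotypes, 0 with at least 10 counts in every library and 1 to 9 with single libraries left out (9 without Plekhg5+/+ SOD1-G93A replicate 1, 5 without Plekhg5+/+ replicate 3, 3 without Plekhg5-/- replicate 2). The 0 genes of the interaction became 102 and 114 by DESeq2, 1 without the filter and 0 to 40 with single libraries left out (40 without Plekhg5+/+ replicate 3). The cause was not tested.

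Of 840 alternative log2 differences of the 10 genes, 34 changed sign, all near 0 and none called. By limma voom these were Sec22b (0.042) and Trim16 (-0.021) in Plekhg5-/- SOD1-G93A against Plekhg5-/- mice, Stx3 (0.041) and Gorasp1 (-0.0019) in Plekhg5-/- against Plekhg5+/+ mice and Stx4a (0.0051) in Plekhg5+/+ SOD1-G93A against Plekhg5+/+ mice. With the Y-linked covariate Sec22b was at 0.010 in Plekhg5-/- SOD1-G93A against Plekhg5-/- mice, and without the filter at -4.2e-05 between the transgenic genotypes. With single libraries left out the ranges in Plekhg5+/+ SOD1-G93A against Plekhg5+/+ mice were -0.10 to 0.047 for Stx4a, -0.0030 to 0.17 for Snap23 and -0.027 to 0.051 for Gorasp2. Between the transgenic genotypes they were -0.0067 to 0.023 for Sec22b, -0.0067 to 0.10 for Stx3, -0.15 to 0.028 for Snap23, -0.10 to 0.028 for Gorasp1 and -0.015 to 0.047 for Gorasp2. In Plekhg5-/- against Plekhg5+/+ mice they were -0.088 to 0.078 for Stx3, -0.093 to 0.053 for Stx4a, -0.067 to 0.051 for Gorasp1 and -0.020 to 0.087 for Tmed10, and in Plekhg5-/- SOD1-G93A against Plekhg5-/- mice -0.069 to 0.023 for Sec22b, -0.11 to 0.0024 for Stx4a and -0.069 to 0.10 for Trim16. With 3 mice per genotype and 142 to 1578 counts of Lgals3 per library, the number of mice limits the precision of these results.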
